A study of Caenorhabditis elegans with 2 samples.

Results

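A set of 373 candidate binding regions of the transcription factor PEB-1 was examined. They are strong ChIP-seq peaks on chromosomes I to V with summits in intergenic sequence away from the promoters of protein-coding genes. They were selected on peak height and position. The list they come from is labelled as holding background as well as peaks, and 41 of the 373 were in the deposited thresholded list. The thresholded list holds the 160 highest peaks of the list called on both replicates together. Being in it is thus not evidence separate from peak height. Binding at the other regions is not established here. The peak list called on both replicates together holds 30000 peaks, of which 24067 are autosomal, and the 1500 highest autosomal peaks were kept. Of these, 478 fell in a promoter window that began 1000 bp before and ended 200 bp after a protein-coding transcription start site (TSS) and 649 lay inside a protein-coding gene away from such a window. The remaining 373 are the distal intergenic peaks described here. A further 4654 autosomal peaks passed the same position rule at lower ranks and serve as the comparison.

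ChIP-seq recovers DNA that is crosslinked to a chosen protein and sequences it. The material was whole second-stage (L2) Caenorhabditis elegans larvae of mixed sex of strain OP86, whose genotype is unc-119(ed3) III with the integrated transgene wgIs86, so that PEB-1 fused to eGFP was recovered. There were 2 biological replicates in 1 group, and no untagged or untreated group was analysed. Whole animals were used, so the tissue that gave a peak is not known.

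PEB-1 contacts DNA through a zinc finger of the FLYWCH type and was first studied at an enhancer of myo-2, which encodes a myosin of pharyngeal muscle. In the compact genome of this nematode most regulatory sequence lies close to the promoter, and intergenic sequence farther away can hold enhancers, promoters of non-coding RNA genes such as microRNAs, and the starts of long transcripts whose ends are later trimmed by trans-splicing. The published PEB-1 site, as recalled here, has a core of A, G or T, then TGCC, then A or G. The full consensus has C or T before this core and A or T after it.

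The sequences of 6 of these regions are shown because they are the 5 strongest of chromosomes II to V and the 3 strongest there with the full consensus, a pair of regions being in both groups. Each is the plus strand of the ce11 build and reaches 100 bp to each side of the summit, and capitals mark matches, in either orientation, to the core or to GAGAGA, the repeat on which the sequence results turn. They lie at chrII:66410-66610 (upstream of egl-26), chrIII:623834-624034 (T19C3.4), chrIII:4282130-4282330 (sup-26), chrII:9282921-9283121 (gldi-3), chrV:6354379-6354579 (bcl-11) and chrIV:14033720-14033920 (Y37A1B.7).
egl-26: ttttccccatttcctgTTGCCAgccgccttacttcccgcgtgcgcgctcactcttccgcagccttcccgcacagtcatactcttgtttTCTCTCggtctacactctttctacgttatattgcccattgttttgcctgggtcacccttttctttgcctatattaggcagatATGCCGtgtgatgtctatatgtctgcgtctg
T19C3.4: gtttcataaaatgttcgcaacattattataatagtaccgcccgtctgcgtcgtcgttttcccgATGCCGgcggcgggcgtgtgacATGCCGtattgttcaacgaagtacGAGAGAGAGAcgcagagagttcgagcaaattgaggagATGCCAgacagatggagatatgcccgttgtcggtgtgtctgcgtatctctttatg
sup-26: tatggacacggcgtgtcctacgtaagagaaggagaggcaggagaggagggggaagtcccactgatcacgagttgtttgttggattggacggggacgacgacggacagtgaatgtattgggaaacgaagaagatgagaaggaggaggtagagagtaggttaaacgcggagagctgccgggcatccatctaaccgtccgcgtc
gldi-3: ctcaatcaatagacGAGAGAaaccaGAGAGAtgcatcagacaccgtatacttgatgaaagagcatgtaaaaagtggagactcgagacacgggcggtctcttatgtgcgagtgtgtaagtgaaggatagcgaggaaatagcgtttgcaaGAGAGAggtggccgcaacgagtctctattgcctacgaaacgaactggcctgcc
bcl-11: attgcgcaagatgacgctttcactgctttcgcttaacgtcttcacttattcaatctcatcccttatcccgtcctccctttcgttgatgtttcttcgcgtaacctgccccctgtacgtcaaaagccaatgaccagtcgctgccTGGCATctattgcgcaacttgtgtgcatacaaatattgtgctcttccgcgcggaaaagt
Y37A1B.7: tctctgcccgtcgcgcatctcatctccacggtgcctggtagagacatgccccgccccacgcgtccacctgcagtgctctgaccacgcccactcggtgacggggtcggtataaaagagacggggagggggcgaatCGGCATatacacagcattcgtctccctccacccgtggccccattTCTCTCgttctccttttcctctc
The egl-26 window held 2 core matches and 1 GAGAGA match, and the T19C3.4 window 3 of each, its GAGAGA matches overlapping in 1 run. The gldi-3 window held 3 GAGAGA matches and no core match, the bcl-11 window 1 core match and no GAGAGA, and the sup-26 window neither. In the Y37A1B.7 window there was 1 match to each.

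Over the 373 peaks the deposited signal, or peak height, had a median of 22.8 and extended from 19.9 to 87.7. Its scale is not stated, so it serves to order peaks within a list. The lower-ranked distal peaks ran from 9.90 to 19.9 with a median of 12.4. The boundary cut a continuous series: the last peaks inside it were near ttr-10 (rank 1493, signal 19.96), tank-1 (rank 1496, 19.95) and sod-4 (rank 1499, 19.94), and the first outside it near K12C11.1 (rank 1503, 19.93) and smp-1 (rank 1508, 19.92). Of the 160 peaks in the deposited thresholded list 99 were autosomal, and 41 of those were distal intergenic, all within autosomal rank 97. Promoter peaks made up 36 of them and peaks inside genes 22.

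The strongest distal regions lay upstream of egl-26, which is needed for shaping the vulval lumen, of T19C3.4, and of sup-26, which encodes an RNA-binding protein. The egl-26 region, with its summit 3144 bp upstream of the TSS, had a signal of 87.7 in the pooled list, 56.9 in replicate 1 and 29.8 in replicate 2. It ranked 3 in the pooled list, 8 in replicate 1 and 3 in replicate 2, all ranks being among autosomal peaks. The T19C3.4 region, 3680 bp upstream, had signals of 86.7 pooled, 70.3 in replicate 1 and 13.4 in replicate 2. It was the third autosomal peak of replicate 1 but only rank 360 in replicate 2. The sup-26 region, 2006 bp upstream, had signals of 75.9, 60.7 and 26.8 in the same order and ranked 9, 6 and 4. Signals were lower in the replicate 2 list throughout these regions, so ranks rather than heights are set side by side.

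The next regions included both high ranks in each replicate and strong disagreement. A peak near the middle of the gap between gldi-3 and mtrr-1, a methionine synthase reductase gene, lay upstream of both. Its summit was 2923 bp from gldi-3 and 2954 bp from mtrr-1. It ranked 10 in the pooled list, 7 in replicate 1 and 52 in replicate 2. The peak 1546 bp upstream of bcl-11, a homologue of the BCL11 zinc-finger factors, ranked 12, 22 and 20. A peak between C33D9.6 and C33D9.13, downstream of the start of C33D9.13, ranked 17, 19 and 23. The peak 2760 bp upstream of nas-7, an astacin metalloprotease gene, ranked 16, 25 and 109, and a second peak in the same gap nearer to the chemoreceptor gene srd-55 ranked 32, 82 and 30. A peak 2696 bp upstream of srap-1 ranked 26, 47 and 38. These regions stayed within rank 109 of both replicates.

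By contrast, the peak 6285 bp upstream of unc-39, a SIX-class homeobox gene, ranked 24 in the pooled list and 14 in replicate 1 but 12448 in replicate 2. Its signals were 45.5 and 6.83. The Y37A1B.7 region ranked 25 in the pooled list and 12 in replicate 1, and had no overlapping peak at all in the 30000 peaks of replicate 2. Beside dmd-6, a DM-domain gene, the peak ranked 46 in replicate 1 and 9901 in replicate 2. Near T09B4.3 it ranked 43 and 9334. The reverse order was seen at let-413, the worm Scribble homologue that acts in epithelial polarity, where the peak ranked 212 in replicate 1 and 14 in replicate 2. At aakg-1, which encodes an AMP-activated kinase subunit, the ranks were 262 and 36.

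**Figure D1:**
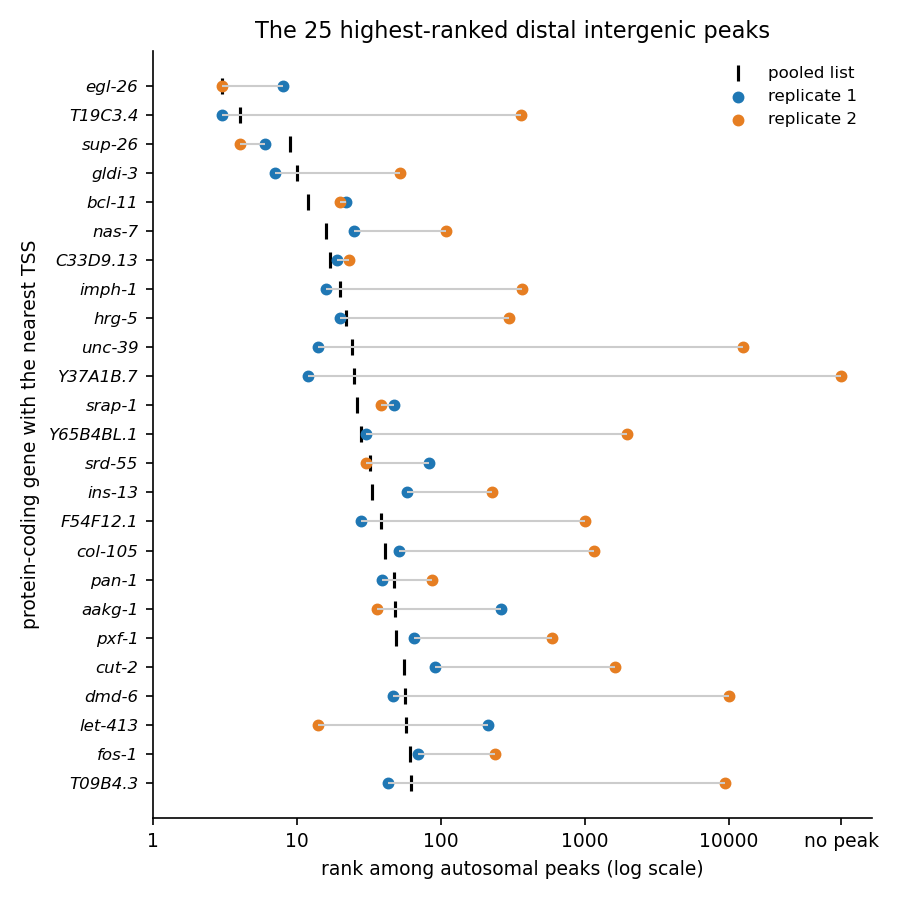
Rank among autosomal peaks (log axis) of the 25 highest distal intergenic peaks in the pooled list (black ticks), replicate 1 (blue) and replicate 2 (orange), each labelled with the protein-coding gene of the nearest TSS. Blue and orange lie together for egl-26, sup-26, bcl-11 and srap-1 and far apart for unc-39, where replicate 2 gives 12448, and for Y37A1B.7, which has no peak in replicate 2.

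The remaining regions of the 25 highest touched genes of several kinds. Peaks lay near imph-1, an RNA-binding protein gene (rank 20), hrg-5, a heme-responsive gene (22), ins-13, an insulin-like peptide gene (33), and pan-1, a leucine-rich repeat protein gene (47). Others lay near col-105, a collagen gene (41), pxf-1, a Rap exchange factor gene (49), cut-2, a cuticlin gene (55), and fos-1, the worm Fos homologue (61). At fos-1 the ranks were 69 in replicate 1 and 236 in replicate 2. Of the 25, 8 ranked within 100 in both replicates, and 5 had a replicate 2 peak beyond rank 1500.

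Over all 373 regions, the replicates placed them differently. Because the pooled list contains both replicates, their ranks are a description and not a test. Among the 1500 highest autosomal peaks of replicate 1 there were 201 of the 373 (53.9%), against a background of 6.81% of all autosomal pooled peaks. For replicate 2 the number was 136 (36.5%), against 6.52%. Both replicates placed 50 regions (13.4%, exact 95% binomial interval 10.1 to 17.3) there, against 0.86%. Among the equally strong promoter peaks 12.8% were in both, and among peaks inside genes 8.94%. Peak height chose these sets, so the gap to the background carries no further information. Of the others, 151 (40.5%) were placed there by replicate 1 only, 86 (23.1%) by replicate 2 only and 86 (23.1%) by neither. Over all 1500 highest autosomal pooled peaks these shares were 39.9%, 22.9% and 26.0%, so the split was not particular to these regions. There was no overlapping peak in replicate 1 for 13 regions (3.5%, against 2.9% of the 1500 and 35.2% of all autosomal pooled peaks). For replicate 2 there was none for 48 (12.9%, against 11.9% and 38.4%). The median rank where a peak existed was 1040 in replicate 1 and 2338 in replicate 2. Of the 41 regions in the thresholded list, 25 were in the highest 1500 of both replicates, 14 lay beyond rank 1500 in replicate 2, and 2 had no peak there.

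**Figure D2:**
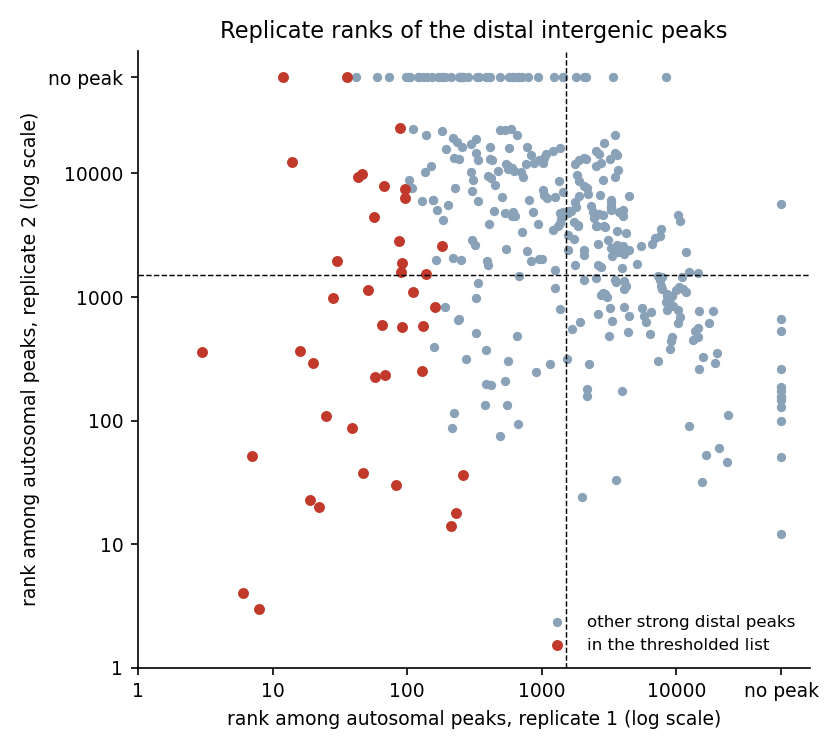
Rank of each of the 373 distal intergenic peaks in replicate 1 (x axis) and replicate 2 (y axis), both on log axes, with peaks missing from a list drawn at its end; dashed lines mark rank 1500. The lower left corner holds the 50 regions high in both replicates, and thresholded peaks (red) are spread from the bottom to the top of the replicate 2 axis.

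The sequence under these regions was richer in G and C and in GAGAGA repeats than under lower-ranked distal peaks, whereas the difference in the core of the recalled PEB-1 site missed the threshold and depended on the setting. Sequence was not used to choose the regions. Motif shares were compared by two-sided Fisher's exact tests over peaks with Benjamini-Hochberg adjustment over 32 motif comparisons (8 motifs, 4 comparison sets). Peaks of 1 experiment are the units, so p-values describe the peaks and not biological replication.

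GAGAGA, in either orientation and no farther than 100 bp from the summit, was found in 140 of 373 regions (37.5%) and in 15.5% of the lower-ranked distal peaks (odds ratio 3.27, interval 2.62 to 4.09, Fisher's exact test, adjusted p = 2.39e-21). Over all autosomal pooled peaks 13.5% held it. In flanking windows centred 500 bp from the same summits the share was 12.9%. The regions also exceeded promoter peaks of the same ranks (27.6%, odds ratio 1.57, adjusted p = 0.0190) and peaks inside genes (20.3%, odds ratio 2.35, adjusted p = 5.51e-08) by Fisher's exact test. The difference from promoter peaks did not pass with a narrower 50 bp window, with the 500 highest peaks, without summits inside any annotated gene, or with either replicate alone (odds ratios 1.26 to 1.49). Strong distal peaks of the X chromosome (ranks 1 to 500 there, 166 peaks, 3 of them within 20 kb of peb-1) held it in 33.7% (Fisher's exact test, adjusted p = 0.716).

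GC content moved with this result. It averaged 42.4% (SD 7.56, 373 windows) against 36.1% (SD 6.72) in the lower-ranked distal peaks, a difference of 6.31 percentage points (permutation test, p = 1e-05, the smallest that 100000 permutations give). Promoter peaks and peaks inside genes of the same ranks had means of 42.2% and 41.4%. In a logistic model with GC content as a covariate the odds ratio for GAGAGA against lower-ranked distal peaks was 1.83 (interval 1.43 to 2.34).

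**Figure D3:**
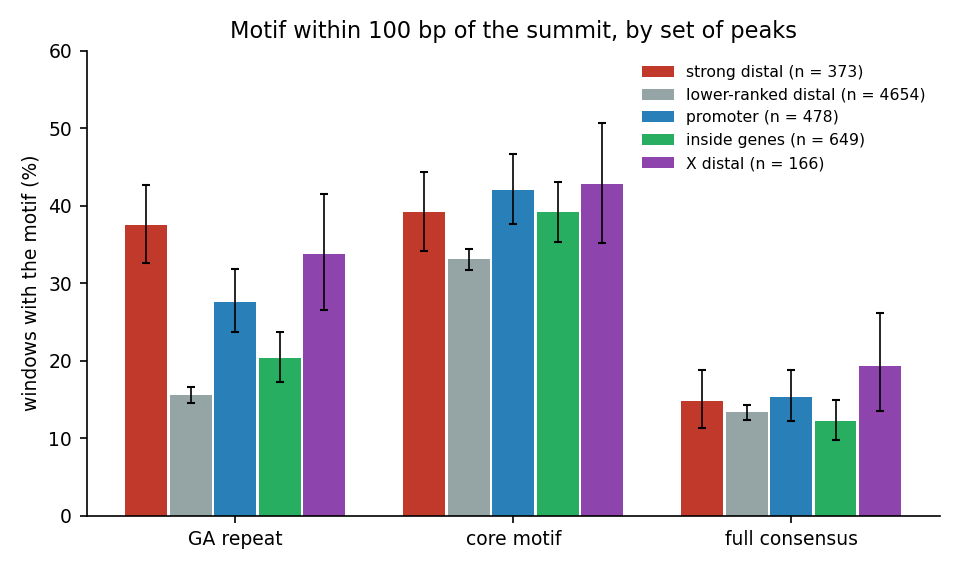
Percentage of windows reaching 100 bp to each side of the summit with the GAGAGA repeat, the core motif or the full consensus (bars, with exact 95% binomial intervals) in the 373 strong distal peaks and 4 comparison sets. The repeat is at 37.5% in the strong distal peaks and 15.5% in lower-ranked distal peaks, while the core motif bars lie between 33.1% and 42.8%.

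The core motif was present in 146 regions (39.1%), in 33.1% of lower-ranked distal peaks and in 35.2% of all autosomal pooled peaks. The odds ratio against the lower-ranked peaks was 1.30 (1.05 to 1.62), which missed the threshold after adjustment by Fisher's exact test (adjusted p = 0.0689), and it was 0.978 in the model with GC content. The replicate lists differed here: with replicate 1 alone the odds ratio was 1.52 and passed (42.7% against 32.9%), and with replicate 2 alone it was 0.982 (32.5% against 32.9%). It passed with the 500 highest peaks (1.74) and without summits inside any annotated gene (1.49). Promoter peaks held the core in 42.1% (odds ratio 0.886, interval 0.673 to 1.17), peaks inside genes in 39.1% (1.00, 0.771 to 1.30) and distal X peaks in 42.8% (0.861, 0.594 to 1.25), none of which passed the test. The full consensus was found in 55 regions (14.7%), against 13.3% of lower-ranked peaks (odds ratio 1.13, interval 0.835 to 1.52) and 13.5% of all autosomal pooled peaks.

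Both sequence features were commonest in the very highest peaks. Within autosomal ranks 1 to 100 there were 42 distal regions, of which 27 (64.3%) held GAGAGA and 27 (64.3%) the core. Past rank 100 and up to 500 the shares were 46.7% and 39.3% of 107 regions. Past rank 1000 they were 26.5% and 30.1% of 113 regions. Mean GC content fell alongside, from 49.3% over 45.4% to 39.6%. Within the set, 62 regions (16.6%) held both the core and GAGAGA, 84 the core only, 78 GAGAGA only and 149 (39.9%) neither. In the matches per kb that follow, overlapping matches were each counted, so a longer run of the repeat counts more than once. Matches to GAGAGA were concentrated at the summit, reaching 6.27 per kb in the 50 bp before it, where lower-ranked distal peaks had 1.80. For the core the same bin had 3.59 per kb against 2.75. Bins within 150 bp of the summit had 2.7 to 3.6 core matches per kb, and bins from 150 to 450 bp on either side 1.8 to 2.5. A bin beginning 700 bp after the summit again had 3.59 per kb, so the rise was slight and values as high recurred farther away. The core was in 39.1% of summit windows and in 32.3% of flanking windows centred 500 bp away.

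**Figure D4:**
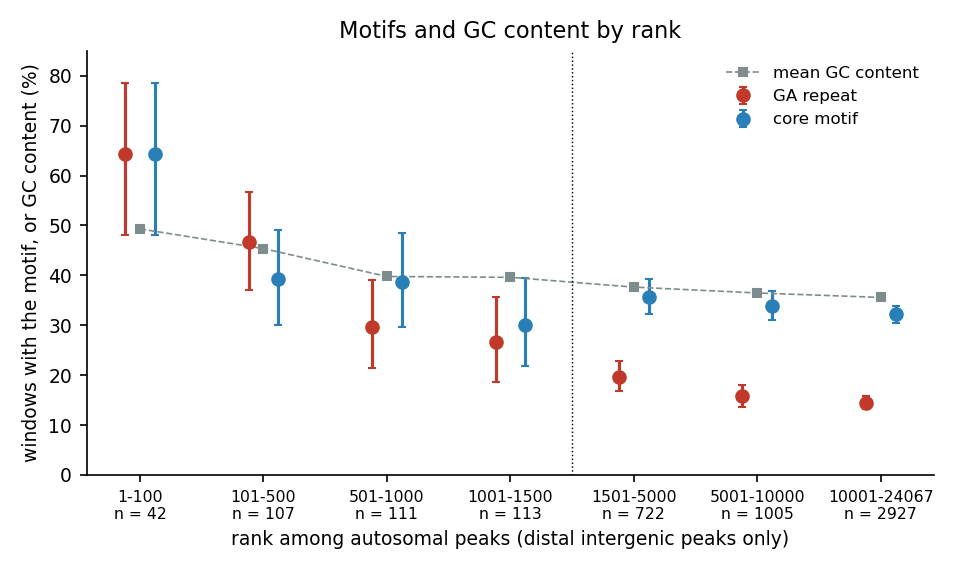
Percentage of distal summit windows with the GAGAGA repeat (red) or the core motif (blue), with exact 95% binomial intervals, and mean GC content (grey squares), by rank among autosomal peaks; the dotted line marks rank 1500. The repeat falls from 64.3% at ranks 1 to 100 to 26.5% past rank 1000 and up to 1500.

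**Figure D5:**
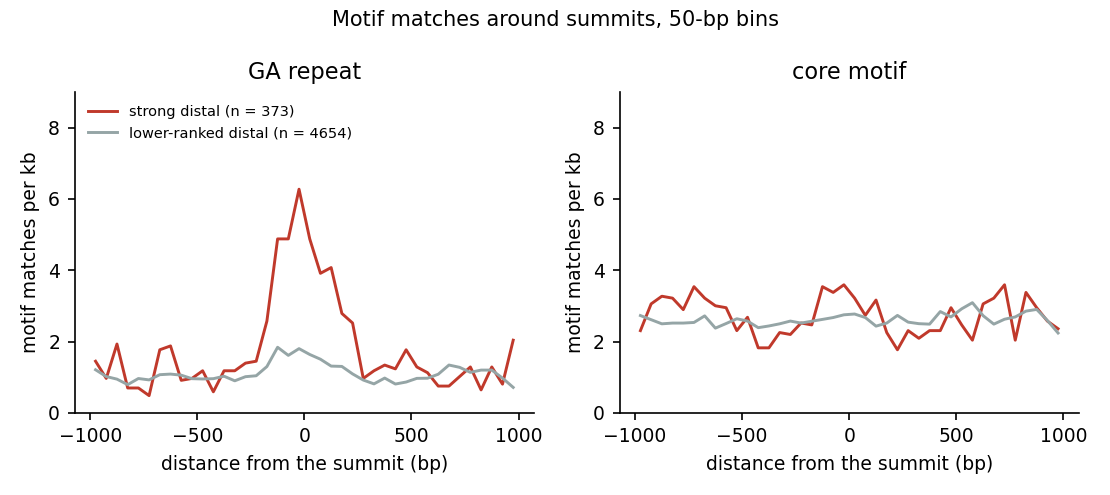
Motif matches per kb in 50-bp bins by distance from the summit for the 373 strong distal peaks (red) and the 4654 lower-ranked distal peaks (grey). Overlapping matches are each counted. The repeat peaks at 6.27 per kb at the summit of the strong distal peaks, while the core varies between 1.77 and 3.59 per kb over all bins. In the strong distal peaks the core has 2.7 to 3.6 per kb within 150 bp of the summit and 1.8 to 2.5 from 150 to 450 bp. It is again at 3.59 in a bin beginning 700 bp after the summit.

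These features differed with the replicate that placed a region high, which is given as counts without a test. The classes also differed in pooled rank, which itself moved with all 3 features: the median was 94.5 for regions high in both replicates, 452 for replicate 1 only, 971.5 for replicate 2 only and 996.5 for neither. GAGAGA was present in 48.0% of the 50 regions high in both replicates (33.7 to 62.6, exact binomial) and in 45.0% of the 151 high in replicate 1 only (36.9 to 53.3). It was present in 26.7% of the 86 high in replicate 2 only (17.8 to 37.4) and in 29.1% of the 86 high in neither. Mean GC content was 46.1%, 45.5%, 38.2% and 39.0% in the same order. The core was found in 25 of the 50, and in 41.7%, 30.2% and 37.2% of the others. Promoter peaks and peaks inside genes of the same ranks divided the same way for GAGAGA, with 40.3% of 119, 32.4% of 447, 11.7% of 257 and 13.5% of 304. When the rule was applied to the replicate 2 list alone, 20.4% of its 363 distal regions held GAGAGA against 13.5% of its lower-ranked ones (odds ratio 1.64, adjusted p = 0.00825 by Fisher's exact test), and GC content differed by 2.31 points. With the replicate 1 list alone the odds ratio was 3.91 and the GC difference 7.91 points. What sets the replicates apart was not tested.

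A scan of all 2080 6-letter words, counted on either strand, was made against the lower-ranked distal peaks. By Fisher's exact test with adjustment over all words, 275 (13.2%) were more frequent in the 373 regions and 141 (6.78%) less frequent. The smallest p belonged to a less frequent word, AAAATT (32.7% against 61.2%), and AAAAAT was also less frequent (45.8% against 68.1%). Among the more frequent words GAGAGA had the smallest p, followed by AGAGAG (32.7% against 13.3%), AGAGAC (25.7% against 9.43%) and CGAGAG (20.1% against 6.94%), which overlap it. With GC content in a logistic model 12 words passed, 10 of them more frequent. The second of these was TGCGCA, a palindrome unrelated in letters to the repeat, found in 33 regions (8.85%) and 2.28% of lower-ranked peaks (odds ratio in that model 2.74, interval 1.77 to 4.23).

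The other motifs searched were rare or did not separate the sets. GTTCGANNC, which resembles the internal B-box of tRNA genes, was found in 1 region (0.268%), against 2.04% of lower-ranked distal peaks (adjusted p = 0.0428), 2.72% of promoter peaks (adjusted p = 0.0267) and 1.78% of all autosomal pooled peaks, by Fisher's exact test. Distal X peaks held it in 3.61% (odds ratio 0.0717, adjusted p = 0.02665, Fisher's exact test). With GC content in a logistic model none of the 3 differences passed after adjustment, but the odds ratios did not move towards equality. Against lower-ranked distal peaks the odds ratio was 0.129 without GC content and 0.0878 with it. Against promoter peaks it was 0.0961 and 0.0956. CTGTTTCA, a motif known upstream of piRNA genes, was in 2 regions (0.536%), against 3.09% of lower-ranked distal peaks (adjusted p = 0.0190, Fisher's exact test) and 1.86% of all autosomal pooled peaks, and it did not pass with GC content in the model. CACGTG, the E-box, was in 12 regions (3.22%), with 4.22% over all autosomal pooled peaks. This was fewer than the 7.09% of peaks inside genes (odds ratio 0.436, Fisher's exact test, adjusted p = 0.0438). With GC content in the model the odds ratio was nearly the same (0.4225), though it did not pass after adjustment. The GATA-type site, A or T before GATA and then A or G, was in 30.8%, against 35.2% of lower-ranked peaks (Fisher's exact test, adjusted p = 0.295). A pair of adjoining TTAGGC telomere repeats was found in 0 of 373 regions, which allows a share of up to 0.804% (3 counts of the total), and in 0.453% of all autosomal pooled peaks.

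The regions lay at a median of 2403 bp from the nearest protein-coding TSS, from 249 to 12932 bp, against a median of 2556 bp for lower-ranked distal peaks. The rule sets the lower end of these distances. Of the 373, 260 were upstream of that TSS and 113 downstream. Within 2 kb there were 148 (39.7%), from 2 to 5 kb 159 (42.6%), from 5 to 10 kb 58 (15.5%), and beyond 10 kb 8 (2.14%). The farthest named regions were near col-105 (12287 bp upstream) and, in the same gap, nhr-41 (12932 bp upstream). Counted once per region, the gaps between coding genes had a median length of 6936 bp, against 7213 bp for lower-ranked distal peaks. A gap with several regions thus counts several times. The difference in median log10 length was not detected (permutation test, p = 0.414).

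Some gaps held several strong regions. In all 331 gaps held at least 1, of which 29 held 2, 5 held 3 and 1 held 4. The gap of 9414 bp between Y65B4BL.6 and Y65B4BL.1 held 4 within 2214 bp, the strongest at rank 28. The gap of 5766 bp between nas-7 and srd-55 held 3 within 2379 bp, and that of 26989 bp between col-105 and nhr-41 held 3 within 3966 bp. Pairs were found upstream of bcl-11, whose second peak ranked 110, and upstream of unc-39, whose second peak ranked 202. In total 77 regions shared a gap with another.

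Non-coding RNA genes lay under or beside more of these regions than of the lower-ranked distal peaks. In an exon of such a gene were 41 summits (10.99%) against 4.02% (odds ratio 2.95, 2.07 to 4.21, Fisher's exact test with adjustment over 8 position features, adjusted p = 2.69e-07). Within 1000 bp of the TSS of a non-coding RNA gene other than a piRNA gene were 112 (30.03%) against 17.9% (odds ratio 1.97, 1.56 to 2.49, Fisher's exact test, adjusted p = 2.69e-07). With GC content as a covariate the odds ratios were 1.71 and 1.53. With the replicate 1 list alone the odds ratios were 4.43 and 2.14 and both passed. With the replicate 2 list alone they were 1.14 and 1.19 and neither passed (adjusted p = 0.653 and 0.577, Fisher's exact test). Of the 41 exonic regions, 32 were in the highest 1500 of replicate 1, 11 in those of replicate 2, and 5 had no peak in replicate 2.

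Of these 41, 34 lay in genes annotated only as ncRNA, 3 in long intergenic RNA genes and 2 in snoRNA genes. In 1 more an ncRNA gene overlapped an snRNA gene, and in 1 a tRNA gene. The highest were in M88.10 beside imph-1 (rank 20), in Y37A1B.330 and Y37A1B.333 (rank 25), in C17C3.23 and sls-2.2 (rank 33), in K04D7.10 and K04D7.8 beside pxf-1 (rank 49), and in R07G3.10 (rank 66). The gene sls-2.2 encodes an SL2 RNA, the leader donated by trans-splicing to downstream genes of operons, and the summit lay 2 bp downstream of its start.

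Small RNA genes of known classes had a start within 1000 bp of 22 summits: 7 near microRNA genes, 8 near snoRNA genes, 6 near tRNA genes and 1 near an snRNA gene. These are counts only, with no share for the lower-ranked distal peaks beside them. Whether any of these classes is over-represented near the regions was not tested. The microRNA neighbours included members of well-known families. The peak near hrg-5 lay 150 bp upstream of mir-53 and ranked 20 in replicate 1 and 295 in replicate 2. The Y37A1B.7 region printed above lay 188 bp upstream of mir-52. Both microRNAs belong to the mir-51 family. The peak assigned to unc-39 lay 506 bp upstream of mir-241, a let-7 family microRNA that acts in larval timing, and the peak near T09B4.3 lay 395 bp upstream of mir-1, a muscle microRNA. In 3 of these 4 regions the replicate 2 peak ranked beyond 9000 or was missing. A second region lay 319 bp downstream of the start of mir-52 and ranked 417 in replicate 1 and 195 in replicate 2.

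Pseudogenes were less common under the regions, with 21 summits (5.63%) against 11.8% of lower-ranked distal peaks (odds ratio 0.445, 0.284 to 0.698, Fisher's exact test, adjusted p = 3.29e-04). The highest of these 21 ranked 315, and 20 of them were high in replicate 2 only or in neither replicate. Nearness to piRNA genes (9.38% against 11.7%, adjusted p = 0.236) and the share between divergent genes (34.6% against 30.3%, adjusted p = 0.145) did not pass Fisher's exact test. The outer parts of the chromosomes, meaning the 25% of the length at each end, held 44.0% against 49.3% (odds ratio 0.807, 0.653 to 0.998, Fisher's exact test, adjusted p = 0.105), a difference that passed with the replicate 1 list alone (odds ratio 0.626) and not with replicate 2 alone (0.864). Sequence copies elsewhere in the genome were less common too: 22 regions (5.90%) had any 30-letter stretch repeated elsewhere, against 13.1% of lower-ranked distal peaks, counted without a test. By chromosome there were 55 regions on I, 72 on II, 77 on III, 88 on IV and 81 on V, or 3.65, 4.71, 5.59, 5.03 and 3.87 per Mb.

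Among the genes with the nearest TSS, no family stood for more than a few percent, and families are given as counts with no test. Nuclear hormone receptor genes (nhr) were nearest to 10 regions (2.68%, against 2.06% of lower-ranked distal peaks), among them nhr-84, nhr-41, nhr-61 and nhr-105. Genes named egl, for defects in egg laying, were nearest to 6 (1.61% against 0.666%): 1 each at egl-26, egl-10, egl-2 and egl-4 and a pair at egl-27, an MTA-like chromatin gene. Chemoreceptor genes of the sr and str families were nearest to 9 (2.41% against 6.21%). Single regions were nearest to lin-17, a Frizzled receptor gene (rank 8955 in replicate 1 and 380 in replicate 2), to mab-3, a DM-domain gene of sexual development (108 and 7623), and to the homeobox genes ceh-43 (653 and 20546) and ceh-34 (2536 and 15299). No region was nearest to a gene named hlh, tbx, sox, his, flp or glr, names that were also rare among the lower-ranked distal peaks (0.279%, 0.193%, 0%, 0.107%, 0.516% and 0.0645%).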

How the data were processed

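The peak lists used were those deposited for build ce11 (WBcel235). Per the accompanying file listing, peaks were called on each replicate and on both pooled, each with a control file; the control was not analysed here. The aligner, caller, versions and the threshold of the irreproducible discovery rate procedure are not stated. Fragments were 150 to 350 bp, per the labels. Each relaxed list was deposited with 30000 peaks, so list length carries no information, and all pooled peaks are 356 bp wide with the summit at base 179. The deposited signal is the height of a peak and depends on read depth, which is unknown here. The deposited score in the q-value column of the pooled list is below 0 for 29058 peaks and only broke ties of rank. Lists for another build were not used.

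Ranks were counted among autosomal peaks of all 5 autosomes. Genes came from Ensembl release 115 (46890 genes, 19973 protein-coding), with 1953 symbols filled in from RefSeq, and sequence from the RefSeq WBcel235 assembly. An overlap of at least 1 bp linked pooled and replicate peaks. Motifs were searched on both strands in windows reaching 100 bp to each side of the summit. Fisher's exact test, logistic models and permutation tests used Python 3.11.15, scipy 1.17.1 and statsmodels 0.14.6, with a threshold of 0.05; 95% intervals of shares are exact binomial (Clopper-Pearson), those of odds ratios normal on the log scale, and both cover counting error only. The tests were run on simulated data first. Alternatives varied the window, the rank limit, the promoter window, merging of peaks within 1000 bp, GC content and the replicate used.

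The regions and lists were chosen with earlier results of these data known. The lists from which regions were named were the 25 highest, the 10 with the best worse replicate rank, the 5 highest in exons of non-coding RNA genes and the 5 highest near small RNA genes, and the 5 on each side of the rank limit. Of the 25 highest, the region near F54F12.1 (rank 38) is not described above, and only some of those at the rank limit are given. The second peaks at bcl-11 and unc-39, the region near mir-1 as a microRNA neighbour, the second region at mir-52, the shared gaps and the genes given for families were chosen after their values were seen. With 1 group, nothing could be tested across replicates.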

Additional observations from a re-analysis of the deposited data

How the results depend on the processing

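Of 97 alternative values, 73 kept their direction and their side of the threshold or, for counts, stayed within 1.5 times the reported one. The number of regions was 286 with ranks counted over all chromosomes, 250 with a promoter window of 2000 to 500 bp, 149 with the 500 highest peaks and 695 with the 3000 highest. For the core motif against lower-ranked distal peaks, the odds ratio of 1.30 became 0.978 with GC content as a covariate. It passed at 1.74 with the 500 highest peaks and at 1.49 without summits inside any annotated gene, and was 0.982 to 1.52 with 1 replicate left out. Against promoter peaks it was 0.816 to 1.03 with 1 replicate left out. Against peaks inside genes it was 0.936 within 200 bp, 0.962 with GC content and 0.851 to 1.14 with 1 replicate left out. The full consensus against lower-ranked distal peaks gave 0.983 with GC content and 0.994 to 1.03 with 1 replicate left out. GAGAGA against promoter peaks gave 1.28 within 50 bp, 1.49 with the 500 highest peaks, 1.48 without summits inside annotated genes and 1.26 to 1.32 with 1 replicate left out, none passing. Against lower-ranked distal peaks GAGAGA passed in all alternatives run, at 1.64 without replicate 1 and 3.91 without replicate 2, and at 5.03 for the 50 regions high in both replicates, an alternative added after seeing the data in which the core had 2.02 and did not pass. With 1 replicate left out the odds ratio was 1.14 to 4.43 for exons of non-coding RNA genes, 1.19 to 2.14 for nearness to their starts, and 0.626 to 0.864 for the outer 25% at each chromosome end, which also passed at 0.766 with 1 peak kept per 1000 bp. Differing 6-letter words numbered 12 with GC content and 194 within 50 bp. The causes were not tested. No paired analysis was possible because there was 1 group. Read depth, duplicates and mapping quality could not be varied, since peaks were the starting point.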
